A study of Mus musculus with 15 samples.

Results

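The first response of a cytokine-dependent blood cell line to interleukin-3 (IL-3) was read as the difference between control siRNA cells after 30 min of IL-3 and control siRNA cells without it. Both sides are Ba/F3-beta, a mouse pro-B cell line that needs IL-3 to survive and divide, and both had received a scrambled siRNA, so the transfection is common to them. RNA of each side was read on 3 Affymetrix designs that together make the murine U74 set, called U74A, U74B and U74C, with 1 array per side and design, which makes 6 of the 15 arrays of the series. Members were taken by sample title, and each design was compared only within itself. The other 9 arrays hold control siRNA cells after 2 h of IL-3 and cells with siRNAs against both Stat5a and Stat5b after 30 min or 2 h of IL-3, and their signals are given only beside those of the genes described. The labels give neither the time the cells spent without IL-3 nor whether arrays share a culture. With 1 array per side and design there was no replicate check of any difference, and no p-value was computed.

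IL-3 binds a receptor made of its own alpha chain and a beta chain shared with related cytokines, and the kinase JAK2 bound to that receptor switches on the STAT5 transcription factors. The same receptor also feeds the RAS-MAPK cascade and the PI3K-AKT-mTOR route, which drive division, cell growth and survival. Genes switched on within minutes, with no need for newly made protein, are called immediate early genes, and Fos, Egr2 and Dusp1 are textbook members. A known property of cytokine signals is that several of the genes they switch on encode their own inhibitors, such as the SOCS proteins and the DUSP phosphatases.

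Outside the immediate early genes, those that rose included inhibitors of cytokine and MAP kinase signalling (Cish, Dusp4, Socs1), transcriptional regulators (Bhlhe40, Id1, Xbp1), the cell cycle inhibitor Cdkn1a, the secreted factors Il6 and Pdgfb, and Vmp1, Fpgt and Mad2l1bp. The other measured SOCS genes, Dusp3 and Dusp6 had values below 2-fold. Those of Socs3 and Dusp6 rest in part on signals too dim to measure, so the size of their change is not settled. Ddit4, an inhibitor of mTORC1, the kinase complex that drives cell growth, was among those that fell. A probe set, the group of probes that reads 1 transcript, was taken as measured if at least 1 of its 2 arrays reached a floor of 119.9 signal units, and dimmer signals were raised to this floor, so that the fold is then a lower bound, written "at least". Genes are said to rise or fall from 2-fold on, which selects by size and tests nothing. The arrays read RNA of whole cultures, in which less RNA per cell and fewer cells with that RNA cannot be told apart. By gene, 42 of 8123 measured genes outside the immediate early list were higher (0.517%) and 28 were lower (0.345%). Of these, 15 higher (0.241%) and 3 lower (0.0481%) belonged to the 6232 genes read on U74A or U74B or by 2 or more probe sets, here called the firmer reading. The remaining 27 higher (1.43%) and 25 lower (1.32%) belonged to 1891 genes that rest on 1 U74C probe set or are read solely by probe sets of a kind that can cross-hybridise, binding related transcripts as well. Of the 70 called genes, 8 had 2 or more measured probe sets, and for 1 of them, Atrx, all of these were past 2-fold in the same direction.

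**Figure D1:**
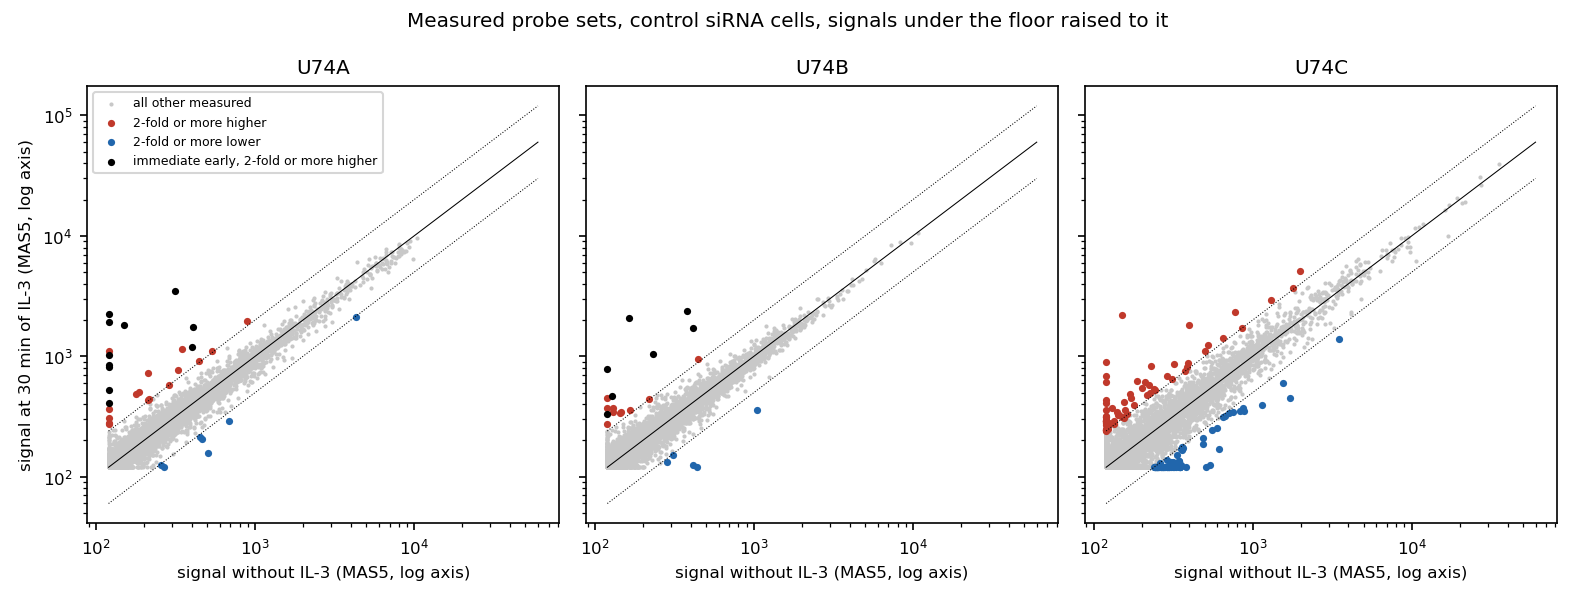
Signal of each measured probe set without IL-3 (horizontal) and after 30 min of IL-3 (vertical) in control siRNA cells, in MAS5 units on log axes, with 1 panel per array design. The solid line marks equal signals and the dotted lines 2-fold differences. On U74A and U74B the points 2-fold or more higher outnumber those lower, 44 against 12, whereas U74C holds 65 higher and 66 lower.

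Precision differed between the array designs. The trimmed mean signal lay between 150.04 and 150.09 on the 6 arrays, and 31.1% to 36.8% of the probe sets reached the floor. Pairs of probe sets for 1 gene gave an SD for a single log2 ratio of 0.23 on U74A, 0.21 on U74B and 0.37 on U74C. Of such pairs, 5.17% were 2-fold or more apart on U74C, 0.255% on U74B and none of 262 on U74A. These pairs share their arrays, so the spread covers differences between probe sets. An error common to a whole array, or a difference between cultures, is not in it. For pairs on different designs the SD was 0.29. A called rise or fall that rests on U74C alone is given with that limit, as the spread was widest there. Over all designs 109 of 13277 probe sets rose (0.821%) and 78 fell (0.587%). By design, 1.55% rose and 1.57% fell on U74C, against 0.631% and 0.164% on U74A and 0.354% and 0.104% on U74B. Stat5a and Stat5b, the siRNA targets, had about the same level on both sides: 543 and 548 at the brighter Stat5a probe set, and 536 and 499 at the U74B probe set of Stat5b.

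The immediate early genes set the scale of the response. Of 49 members of that list on the arrays, 32 were measured. Of these, 16 rose and 0 fell, where 0.711% of all measured genes were higher and 0.343% lower. The rises ran from 1.19 to at least 4.22 on the log2 scale. Several members, among them Egr2, Fos and Junb, were under the floor without IL-3 and count as measured only through the array at 30 min. Fewer members rose when both arrays had to reach the floor, as given with the processing alternatives. Egr2, a zinc finger transcription factor, had a signal of 25.9 without IL-3 and 2238 at 30 min, and Fos, a subunit of AP-1, 9.30 and 1944. The signals of Csrnp1 were 164 and 2095, those of the MAP kinase phosphatase Dusp1 149 and 1824, and those of Ier2 313 and 3487. Junb, another AP-1 subunit, was read by a pair of probe sets that can cross-hybridise, with 37.8 and 813 at the first and 90.4 and 1034 at the second. Of the genes outside the list, Cish was the one with a log2 ratio (at least 3.19) in the range of these 6.

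Of the 19 measured genes of JAK-STAT feedback and STAT5 targets, 5 rose and 0 fell, and 15 had a ratio above 0. Of all measured genes outside the immediate early list, 0.517% were higher and 0.345% lower. The list was drawn up with earlier results of these data known. Cish, Socs1 and Id1 were under the floor without IL-3 and so count as measured only through the array at 30 min. The count is therefore a description and no test of the list. Their median log2 ratio was 0.12, against -0.0070 over all measured genes. Cish encodes CIS, an SH2 protein that binds activated cytokine receptors and dampens STAT5 signalling. Its U74A probe set read 108.4 without IL-3 and 1097 after 30 min, at least a 9.15-fold rise. It read 1565 in control cells at 2 h, and 389 and 645 in Stat5 siRNA cells at 30 min and 2 h. All 4 arrays with IL-3 were thus above the unstimulated one, which is the common reference of each of these comparisons.

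The start of the Cish gene is shown because it holds a pair of palindromic STAT sites, the letters TTCNNNGAA that STAT5 dimers are known to bind. Both lie just after the annotated start of the RefSeq promoter table (build GRCm38.p6), at bases 1 to 9 and 12 to 20 from it, in chr9:107296654-107296683 on the plus strand, with the matches in capitals.
Cish: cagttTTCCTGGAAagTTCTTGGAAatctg

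Socs1, a SOCS protein that inhibits JAK kinases directly, had signals of 35.1 without IL-3 and 277 at 30 min, a rise of at least 2.31-fold. Its signal was 128 in control cells at 2 h, and 101 and 57.7 in Stat5 siRNA cells at 30 min and 2 h. The control array at 30 min was therefore the one that stood clearly above the floor. Of the other measured family members, Socs2 was at 0.01 in log2 ratio, Socs4 at 0.11, Socs5 at 0.21, Socs6 at 0.25 and Socs7 at 0.01. Socs3 was under the floor without IL-3. Its 0.09 is therefore a lower bound, which does not show whether it stayed near that value. These values were picked out after they were seen.

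Bhlhe40, a transcriptional repressor of the basic helix-loop-helix (bHLH) family, went from 347 to 1143, a 3.29-fold rise on U74A. It read 1890 in control cells at 2 h, and 485 and 816 in Stat5 siRNA cells at 30 min and 2 h. Id1, which blocks bHLH factors by pairing with them without binding DNA, went from 49.97 to 368, at least 3.07-fold. Its signals were 911 in control cells at 2 h, and 257 and 713 in Stat5 siRNA cells. In both genes the control array at 2 h was the highest of the 5. Pim1, a serine/threonine kinase that favours survival and a known STAT5 target, was read by a pair of U74A probe sets. The brighter one went from 573 to 908, a log2 ratio of 0.66, and the dimmer one from 51.3 to 307, at least 1.36. The median of these, at least 2.01-fold, is at the threshold, and the brighter probe set alone is below it.

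The receptor and kinase layer itself stayed below 2-fold in both directions. Of 19 measured cytokine receptors, JAKs and STATs, 0 were past 2-fold in either direction, and their median log2 ratio was 0.02. The largest value was that of Il4ra, a chain of the IL-4 receptor, with signals of 151 and 289 (0.94). It read 649 in control cells at 2 h, and 169 and 356 in Stat5 siRNA cells. Stat2 was at -0.53, the interferon receptor chain Ifnar2 at -0.48 and Jak2 at -0.43. The chains of the IL-3 receptor were near the level without IL-3, with Il3ra at 0.01 and the beta chain genes Csf2rb and Csf2rb2 at 0.19 and 0.20.

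Among 20 measured genes of the RAS-MAPK pathway and its inhibitors, a list that leaves out those on the immediate early list, 1 rose and 0 fell. Their median log2 ratio was 0.21 and 14 of the 20 were above 0, where the median of all measured genes was -0.0070. Several of these values were small or lower bounds, and no shift of the list was tested. For this and each list below, the shares over all measured genes outside the immediate early list were 0.517% higher and 0.345% lower. Dusp4 encodes a nuclear phosphatase that switches off MAP kinases. Its U74B probe set read 112 without IL-3 and 454 at 30 min, a rise of at least 3.79-fold. It read 528 in control cells at 2 h, and 386 and 730 in Stat5 siRNA cells at 30 min and 2 h, so all 4 arrays with IL-3 were above the unstimulated one. A second Dusp4 probe set was under the floor on both arrays compared, at 44.2 and 52.7. The next largest values were those of the kinases Araf (0.62) and Rps6ka3 (0.45) and of Spry2, a Sprouty inhibitor of RAS signalling (0.41), all below 2-fold. The other measured DUSP genes of this list were Dusp6 at 0.34 or higher and Dusp3 at 0.19.

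In the PI3K, AKT and mTOR pathway 2 of 22 measured genes fell and 0 rose, and the median log2 ratio was -0.02. Over all measured genes outside the immediate early list 0.345% fell and 0.517% rose. Ddit4, also called REDD1, is a stress-induced protein that holds mTORC1 down. Its U74A probe set read 508 without IL-3 and 158 at 30 min, 3.22-fold lower. It read 125 in control cells at 2 h, and 262 and 231 in Stat5 siRNA cells at 30 min and 2 h, so the unstimulated array was the highest of the 5. Akt1s1 encodes PRAS40, another inhibitor of mTORC1 and a substrate of AKT. It read 3487 and 1382, 2.52-fold lower, but on a U74C probe set that can cross-hybridise. The same probe set read 1171 in control cells at 2 h, and 3620 and 1980 in Stat5 siRNA cells at 30 min and 2 h. The U74A probe set of Akt1s1 was under the floor on all 5 arrays, with 67.5 and 63.1 on those compared. Sesn2, a sestrin that restrains mTORC1, was at 0.70, read only by a U74C probe set that can cross-hybridise, and Pik3ip1, an inhibitor of PI3K, at -0.58 or lower. The kinases and regulators at the centre of the pathway lay close to 0, with Akt1 at 0.12, Mtor at -0.11 or lower, Tsc1 at -0.14 and Tsc2 at -0.24.

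Of 25 measured FOXO-linked and growth arrest genes, 1 rose and 0 fell, and the median log2 ratio was 0.06. FOXO factors are known to drive such genes when growth factor signals are absent. The shares over all measured genes outside the immediate early list were 0.517% higher and 0.345% lower. Cdkn1a encodes p21, an inhibitor of cyclin-dependent kinases. A pair of U74A probe sets read it, 1 at 213 without IL-3 and 731 at 30 min and the other at 228 and 441, so that their median was 2.57-fold. The first read 483 in control cells at 2 h, and 445 and 293 in Stat5 siRNA cells at 30 min and 2 h. At both probe sets the control array at 30 min was the highest of the 5. Mdm2, which encodes the ubiquitin ligase of p53 and is, as Cdkn1a is, a p53 target, had 213 and 435 on U74A and 1205 and 2010 on U74C, with a median log2 ratio of 0.88. Gadd45a, a stress and growth arrest gene, went the other way, from 594 to 364 (-0.71). The antiproliferative gene Tob2 was at least 0.51 in log2 ratio, a bound below 2-fold.

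**Figure D2:**
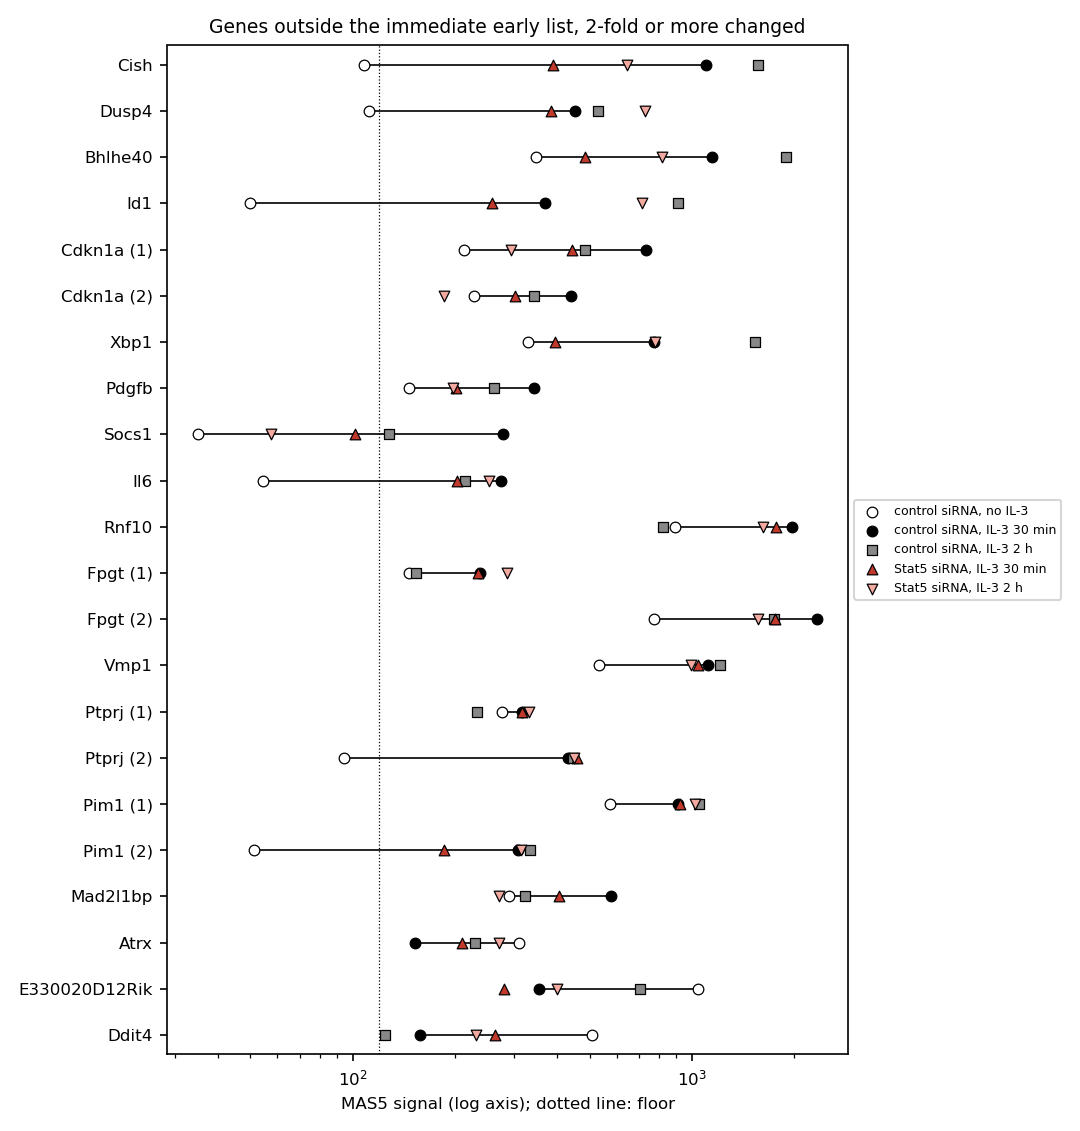
MAS5 signals (log axis) of the measured probe sets of the 18 genes outside the immediate early list that changed 2-fold or more and were read on U74A or U74B or by 2 or more probe sets. Probe sets that can cross-hybridise are left out, and numbers in brackets tell apart the probe sets of 1 gene. Black lines join the unstimulated signal (open circle) to that at 30 min of IL-3 (filled circle) in control cells, grey squares show control cells at 2 h, and red triangles Stat5 siRNA cells. Cish moved from 108.4 to 1097 and Ddit4 from 508 to 158.

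Xbp1, a transcription factor of the unfolded protein response, was the 1 of 22 measured heat shock and protein folding genes to rise, and 0 fell. Its U74A probe set went from 330 to 774, a 2.35-fold rise. It read 1539 in control cells at 2 h, and 394 and 777 in Stat5 siRNA cells at 30 min and 2 h. The array of Stat5 siRNA cells at 30 min was thus closer to the unstimulated one than to the control array of the same time. The list had a median log2 ratio of 0.09. Its next members were the chaperone gene Hspa5, at 789 and 1096 (0.47), and Dnajb1, a cochaperone of HSP70. Probe sets of Dnajb1 disagreed, with 185 and 507 on U74A (1.45) and 160 and 112 on U74C (at least 0.42 lower), so its value of 0.52 is a median of opposite signs. On U74A Dnajb1 was back at 194 in control cells at 2 h.

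Il6 and Pdgfb encode secreted factors, a cytokine and a growth factor chain. Il6, the 1 of 11 measured NF-kB subunits, inhibitors and targets to rise (median of the list 0.07, 0 lower), read 54.4 without IL-3 and 274 at 30 min, a rise of at least 2.28-fold. It read 215 in control cells at 2 h, and 204 and 252 in Stat5 siRNA cells at 30 min and 2 h, so the unstimulated array was the only 1 of 5 under the floor. Pdgfb went from 147 to 343 on U74B, a 2.34-fold rise. Its signals were 261 in control cells at 2 h, and 201 and 198 in Stat5 siRNA cells. The U74A probe set of Pdgfb was under the floor, at 24.6 and 22.5. Of the list of secreted cytokines and growth factors, which leaves out Il6 and Pdgfb, only 4 of 28 genes on the arrays were measured, with 0 higher and 0 lower. Those were Igf1 (-0.56), Tgfb1 (-0.22), Hbegf (0.19) and the chemokine Ccl9 (0.41). Hbegf was under the floor without IL-3 and just above it at 30 min on each design, with 28.9 and 137 on U74A, 28.7 and 136 on U74B and 19.9 and 139 on U74C, so that its ratio is a lower bound.

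The Il6 promoter is shown because it holds matches to both an AP-1 site (TGANTCA) and an NF-kB site, letters bound by known regulators of this gene. The stretch is chr5:30012864-30013113 on the plus strand of GRCm38.p6 from RefSeq, the 250 bases before the annotated start, with an AP-1 match at bases -249 to -243 and an NF-kB match at bases -44 to -35 in capitals.
Il6: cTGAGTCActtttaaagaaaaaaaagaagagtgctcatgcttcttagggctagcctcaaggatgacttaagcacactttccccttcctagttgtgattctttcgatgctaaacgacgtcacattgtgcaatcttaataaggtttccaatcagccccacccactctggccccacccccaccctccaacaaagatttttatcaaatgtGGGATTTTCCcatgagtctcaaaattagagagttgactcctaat

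The remaining called genes read on U74A or U74B belong to no list. Vmp1, a membrane protein of the endoplasmic reticulum needed for autophagy, went from 533 to 1115, a 2.09-fold rise. It read 1207 in control cells at 2 h and 1039 and 995 in Stat5 siRNA cells, so all 4 arrays with IL-3 were close to each other. Mad2l1bp, whose product (p31comet) silences the spindle checkpoint, went from 288 to 579 (2.01-fold) and was at 322 in control cells at 2 h. Its signals in Stat5 siRNA cells were 407 at 30 min and 270 at 2 h, so the control array at 30 min was the highest of the 5. Rnf10, a RING finger protein, went from 889 to 1966 on U74A, a 2.21-fold rise. It read 820 in control cells at 2 h, and 1771 and 1624 in Stat5 siRNA cells. A pair of U74C probe sets of Rnf10 that can cross-hybridise did not follow, with log2 ratios of -0.06 and 0.08.

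Ptprj, a receptor tyrosine phosphatase, owed its value to 1 U74C probe set. That probe set read 94.6 without IL-3 and 432, 445, 458 and 448 on the 4 arrays with IL-3. A U74B probe set of the gene read 275 without IL-3 and 316 at 30 min (0.20), which brings the median to at least 2.04-fold. Fpgt, an enzyme of fucose metabolism, was read only on U74C. Its brighter probe set went from 775 to 2335 (1.59) and the dimmer one from 147 to 237 (0.69), a median of 2.20-fold.

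The other falls were those of E330020D12Rik and Atrx. E330020D12Rik, a transcript known only by its clone name, went from 1041 to 356 on U74B, 2.93-fold lower. It read 705 in control cells at 2 h, and 279 and 400 in Stat5 siRNA cells, so the unstimulated array was the highest of the 5. Atrx, a chromatin remodeller that works with the histone chaperone DAXX, went from 310 to 152 on U74B, 2.04-fold lower. It read 230 in control cells at 2 h and 211 and 271 in Stat5 siRNA cells. A U74C probe set of Atrx that can cross-hybridise read 318 and 38.9 on the arrays compared, and 399, 296 and 466 on the other 3.

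Bounds of several of these changes move with the floor by construction. With the floor doubled, the log2 ratio was at least 0.92 for Dusp4, 0.62 for Id1, 0.52 for Pdgfb, 0.21 for Socs1 and 0.19 for Il6, and -0.37 or lower for Atrx, all short of 2-fold. With dim signals left as they were it was 2.02 for Dusp4, 2.88 for Id1, 2.98 for Socs1 and 2.33 for Il6. Neither setting shows that the change was smaller or larger. Pim1 and Ptprj were below 2-fold with the floor doubled, when both arrays had to reach the floor and with the brightest probe set per gene, and Ptprj also without U74C (0.20). Rnf10 was at 0.08 when the probe sets that can cross-hybridise were counted. Cish, Bhlhe40, Cdkn1a, Xbp1, Fpgt, Vmp1, Mad2l1bp, Ddit4 and E330020D12Rik were past 2-fold under each alternative floor, scaling and probe set rule that gave them a value.

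The genes resting on 1 U74C probe set, or solely on cross-hybridising ones, were many and less sure. Ppil6, a cyclophilin-like protein, had the largest rise, from 99.5 to 684 (at least 5.71-fold) on a probe set that can cross-hybridise, and was back at 82.3 in control cells at 2 h. 1700113H08Rik, also read only by such a probe set, went from 396 to 1835 (4.63-fold). It was at 830 in control cells at 2 h, and at 430 and 415 in Stat5 siRNA cells. Both had their highest signal on the control array at 30 min.

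Ikzf4, which encodes Eos, a zinc finger factor of the Ikaros family, rose 2.89-fold on 1 U74C probe set, from 168 to 487. It was the 1 of 29 measured transcription factors of blood cells to rise, none fell, and the list's median log2 ratio was -0.02. Its signals were 781 in control cells at 2 h, and 319 and 486 in Stat5 siRNA cells, while its probe sets on U74A and U74B were under the floor on all 5 arrays. The next members of that list were Cebpd (0.48), Sox4 (-0.47, from a probe set that can cross-hybridise) and Elf1 (0.42), all below 2-fold. The other large rises were those of 4930405O22Rik (at least 2.99-fold), Rps13 (2.86-fold), Lce1i (at least 2.61-fold), Exoc3l2 (at least 2.61-fold) and 5033430I15Rik (2.61-fold). Rps13, a ribosomal protein gene, read 130 and 371 there, and its other probe set was under the floor.

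The 8 largest falls of that kind were AV205837 (at least 2.87-fold), Smpd3 (at least 2.67-fold), Lrmda (2.62-fold), Ttll11 (2.59-fold), BC049762 (2.58-fold), Fam217a (2.58-fold), Prickle4 (at least 2.55-fold) and Akt1s1. Smpd3 encodes a neutral sphingomyelinase, and read 320 and 119. Fam217a read 1549 and 601, with 615 in Stat5 siRNA cells at 30 min. With the floor doubled, the bounds of AV205837, Smpd3, Lrmda, Ttll11, BC049762 and Prickle4 were short of 2-fold, as were those of 4930405O22Rik, Rps13, Lce1i, Exoc3l2 and 5033430I15Rik among the rises. Among these genes the control array at 30 min was the lowest of the 5 in 18 of the 25 that fell and the highest in 14 of the 27 that rose. For the genes with the firmer reading it was the lowest in 1 of the 3 that fell and the highest in 7 of the 15 that rose. The choice of genes by this array favours such an order.

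**Figure D3:**
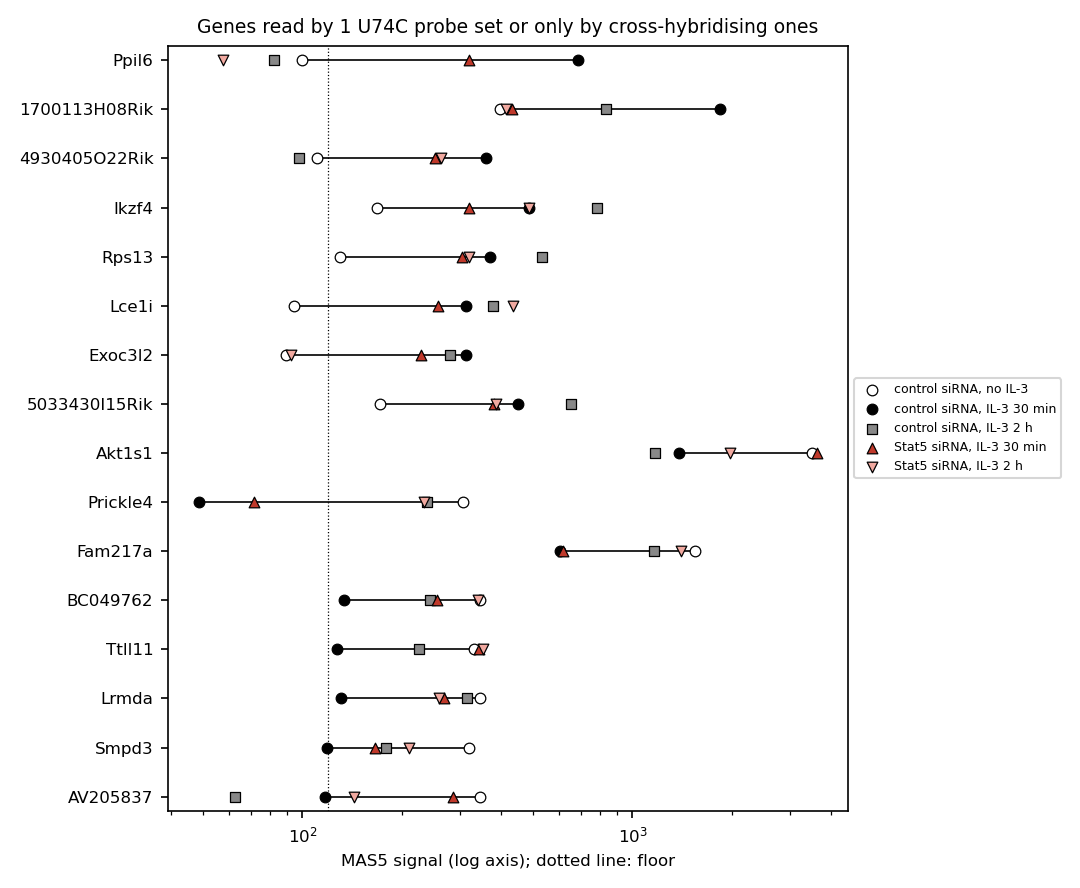
MAS5 signals (log axis) of the 8 largest rises and 8 largest falls among genes that rest on 1 U74C probe set or solely on cross-hybridising ones, with symbols as in the plot of the firmer genes. The signals of Ppil6 ran from 57.5 to 684 over the 5 arrays, and Akt1s1 stood at 3487 without IL-3 and 3620 in Stat5 siRNA cells at 30 min, against 1382 in control cells at 30 min.

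No gene past 2-fold was found in the lists of cell growth and division. The 35 measured genes of the MYC-MAX network and ribosome biogenesis stayed within it, and their median log2 ratio was 0.04. Myc itself is on the immediate early list, where it rose by at least 2.14 on the log2 scale. Cdkn1a (1.36) and Mad2l1bp (1.01), which rose, and Ddit4 (-1.69), which fell, are likewise on none of the lists of growth and division. The widest members of the ribosome biogenesis list were Mga (-0.65), the ribosome assembly gene Nop16 (at least 0.65), Heatr1 (-0.54) and Mycn (0.52). Nop16 disagreed between its probe sets, with -0.15 and -0.03 at 2 U74A probe sets that can cross-hybridise. The medians were -0.04 for 28 genes of G1/S and DNA replication and 0.06 for 33 genes of G2/M and mitosis, again with 0 past 2-fold in either list. Cdk4, the kinase partner of D cyclins, had 449 and 213 at 1 U74A probe set (-1.08) and 1506 and 1349 at the other (-0.16), a median of -0.62. The mitotic kinase genes Ttk and Bub1 were at 0.41 and 0.40.

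Metabolic lists were also flat at 30 min. The median log2 ratio was 0.0029 for 20 glycolysis genes, 0.05 for 26 genes of cholesterol and fatty acid synthesis, -0.02 for 22 of polyamine and nucleotide synthesis and -0.07 for 25 of amino acid supply, tRNA charging and the ATF4 response. In all 4 lists, 0 rose and 0 fell. Idi1, an isomerase of the cholesterol pathway, had 241 and 389 (0.69), and read 547 in control cells at 2 h. The seryl-tRNA synthetase gene Sars was at 0.75 and the tyrosyl-tRNA synthetase gene Yars at -0.62. Atf4, the transcription factor that drives amino acid genes and was counted among the repressors and bHLH factors, had 376 and 608 (0.69).

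RNA-binding and cytoskeletal genes held a few values between 1.5-fold and 2-fold. Srsf5, a splicing factor of the SR family known to respond to growth signals, had 666 and 1176 (0.82). It was the widest of 31 splicing genes, whose median was -0.05. Zfp36l2, which speeds decay of mRNAs with AU-rich elements, had 1604 and 2476 (0.63), and the median of 23 mRNA decay genes was -0.03. Of 24 measured genes of the cytoskeleton and adhesion linked to the factor SRF, 18 were above 0, with a median of 0.09. The median of all measured genes was -0.0070, and no shift of the list was tested. Cnn2, an actin-binding calponin, led that list with 217 and 400 (0.88), and the integrin gene Itgb1 was at 0.73 on U74C but at -0.16 and 0.12 on U74A probe sets that can cross-hybridise. None of these 3 lists held a gene past 2-fold.

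Bhlhe40 and Id1, which rose, were counted with the JAK-STAT genes and not among the short-lived repressors and bHLH factors. Of the 13 measured genes of the latter list, 0 were past 2-fold, with a median of -0.0042. Skil, a corepressor of SMAD factors, had 259 and 476 (0.88), Tgif1, another corepressor of SMAD signalling, 281 and 175 (-0.68), and the circadian gene Per2 247 and 163 (-0.60). In the list of 13 G protein signalling regulators and receptors the median was -0.05. Rgs2, which speeds the shut-off of G proteins, had 222 and 111, at least 1.85-fold lower. This bound is short of the threshold, so Rgs2 was not called, but its fall may be larger. The complement receptor C3ar1 had 114 and 200 (at least 0.74). Rgs2 read 60.2 in control cells at 2 h, and 120 and 49.9 in Stat5 siRNA cells at 30 min and 2 h.

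The genes on the lists of survival and of the interferon response also stayed within 2-fold. Mcl1 (0.84), Bcl2l1 (0.12 or higher), Bcl2l11 (0.17) and Bbc3 (0.32, from a probe set that can cross-hybridise) were counted on other lists. Ifi27l2b, which is not on the interferon list, was at -1.01 or lower on U74C alone. The 13 measured BCL2 family and cell death genes had a median of -0.05, with Aifm1 at -0.37, Bnip3 at 0.31, Bak1 at 0.28 and Bcl2 at -0.23. The 17 interferon response genes had a median of 0.07, and Oasl1 (0.67), Gbp7 (0.66) and Irf1 (0.48) were the highest. B2m, the light chain of MHC class I, was the lowest at -0.66, with 3051 and 1931. The 27 ubiquitin system genes had a median of 0.05, and the 24 histone and chromatin genes one of -0.01.

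The lists used as references gave the level of no change. The median log2 ratio was -0.06 for 16 ribosomal protein genes, -0.13 for 19 housekeeping genes and -0.05 for 26 genes of mitochondrial respiration, each with 0 higher and 0 lower. These counts hold for the listed members. The ribosomal list leaves out Rps13 (1.52, on U74C alone) and Rpl37a (-0.62, on U74A). Of all measured genes, the middle 50% lay between -0.16 and 0.15.

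**Figure D4:**
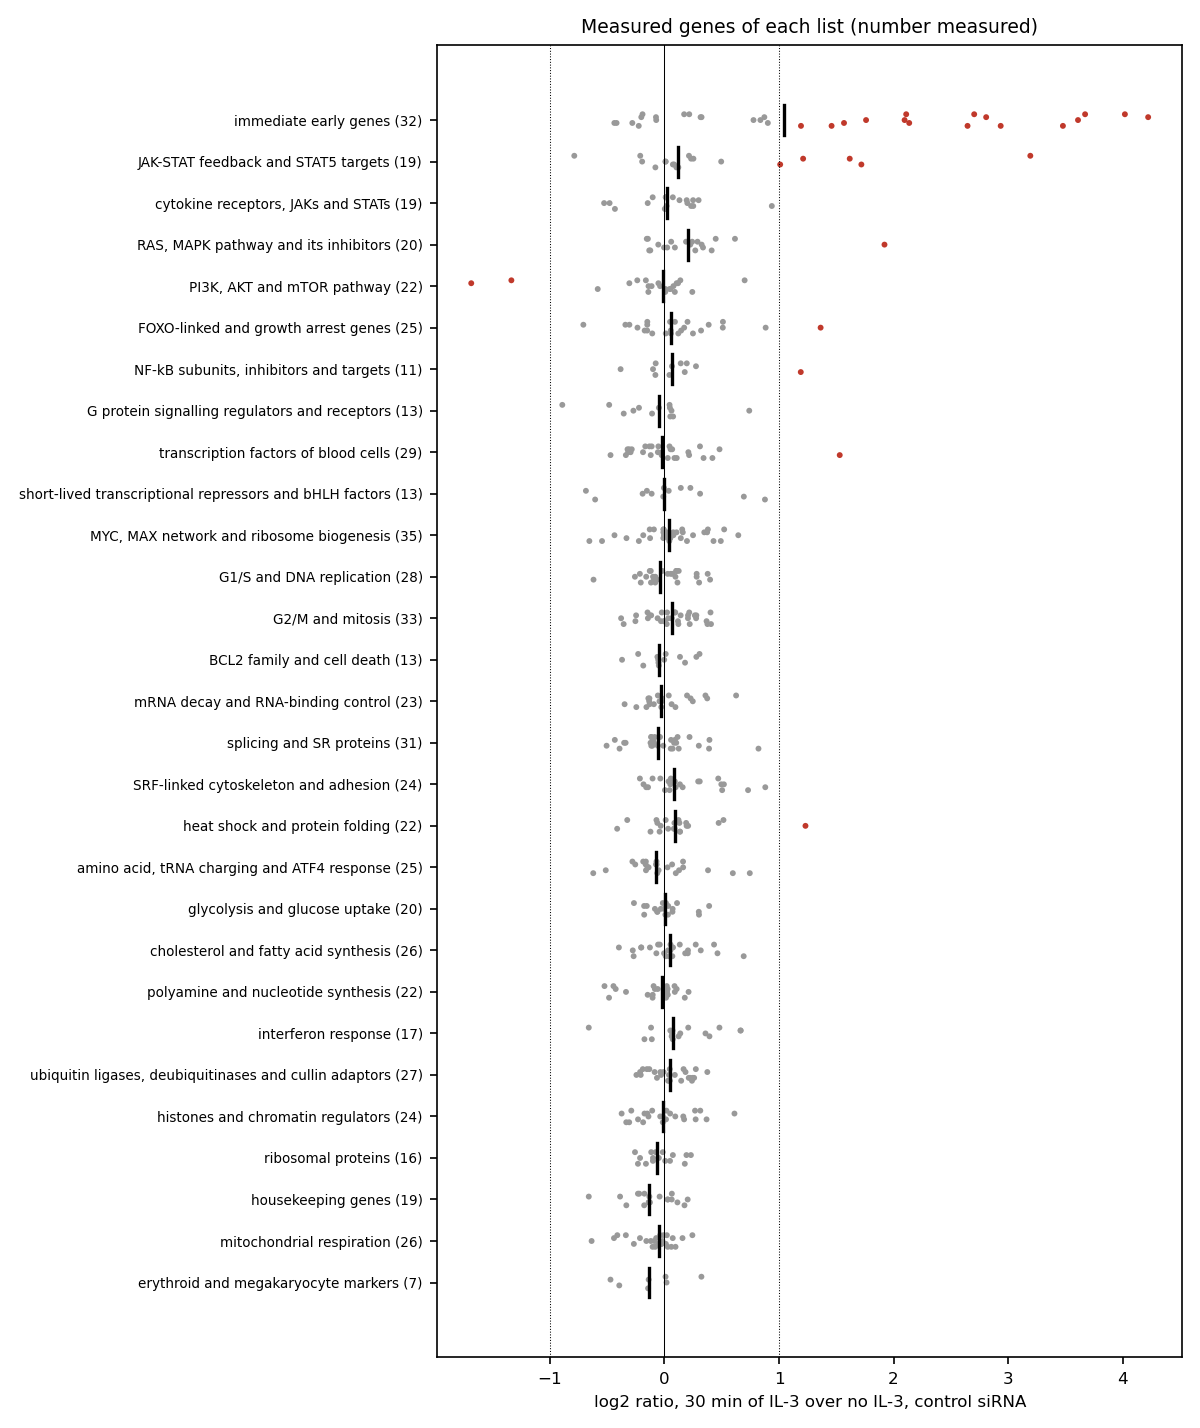
Log2 ratio of signals at 30 min of IL-3 over no IL-3 in control siRNA cells for each measured gene (point) of the lists with 5 or more measured genes, with the list's median as a black bar. Red points are past 2-fold, marked by dotted lines. The immediate early list reached 4.22, a lower bound, and the other medians lay between -0.14 and 0.21.

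Cell type markers were compared on the same arrays. Of 19 pro-B and B lineage markers on the arrays, 3 reached the floor (Cd79b, Ptprc and Tnfrsf13b), and the defining genes Cd79a, Pax5, Ebf1, Vpreb1, Rag1 and Igll1 did not, so these markers do not show the labelled pro-B identity. The floor was reached by 2 of 18 myeloid and mast cell markers (Gzmb and Ms4a2), 2 of 15 T and NK cell markers (Il2rb and Nkg7), 7 of 11 erythroid and megakaryocyte markers and 3 of 15 fibroblast and epithelial markers. Those 7 were Epor, Gp9, Hba-a1, Itga2b, Klf1, Slc4a1 and Tfrc. Slc4a1 was read only by a probe set that can cross-hybridise, and Gp9 reached the floor only at 30 min. The summed signals of the lists without IL-3 and at 30 min were 2833 and 3277 for the pro-B list, 5556 and 5324 for the myeloid list, 1962 and 2050 for the T and NK list, 7694 and 6825 for the erythroid list and 1705 and 1637 for the fibroblast list. Gzmb alone gave 4734 and 4475 of the myeloid sums, and Itga2b 3366 and 3050 of the erythroid ones. None of the measured markers was past 2-fold, and their part in the results was not tested. The signal ratio of 3' to 5' control probe sets lay between 1.01 and 1.19 for Actb, between 0.782 and 0.861 for Gapdh and between 3.56 and 5.12 for Tfrc, over both sides and all designs.

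Promoter letters were compared between the called genes and all genes of the RefSeq table (GRCm38.p6), in windows of 300 bases of which 250 lie before an annotated start. A window was available for 30 of the 42 genes higher outside the immediate early list, with 40 windows as a gene can have several, and for 20 of the 28 lower genes, with 24. Bhlhe40, Dusp4, Fpgt, Id1 and Pdgfb were not among those matched. The palindromic STAT site TTCNNNGAA was found in 7 of the 40 windows of the higher genes (17.5%) and in 0 of the 24 of the lower genes. It was found in 3 of 21 windows of the immediate early genes that rose (14.3%, from Csrnp1, Maff and Zfp36), in 8.30% of all 32851 windows and in 6.63% of those of measured genes. The higher genes outside that list with a match were Cish, Ptprj, Rnf10, Cldn12, Scgn and 1700113H08Rik, and no window of Socs1, Pim1 or Xbp1 held one. Cldn12 and 1700113H08Rik were read only by U74C probe sets that can cross-hybridise, and Scgn by 1 U74C probe set. Probe sets of Ptprj and of Rnf10 disagreed. Among the 15 higher genes of the firmer reading, 10 had a window, and 3 of their 15 windows held a match.

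Other motifs were counted in the same windows. The CArG box, bound by SRF, lay in 7 of 21 windows of the immediate early genes that rose (33.3%, from Dusp5, Egr2, Srf and Zfp36). It lay in 3 of 40 windows of the other higher genes, all of Cldn12, in 1.63% of all windows and in 1.20% of those of measured genes. The cAMP response element TGACGTCA was in 14.3% of the immediate early windows and in 0 of the 40, against 1.79% of all and 3.09% of measured genes' windows. The EGR site GCGNGGGCG was in 23.8% and 2.50%, against 5.55% and 10.6%. The AP-1 site TGANTCA was in 4.76% and 12.5%, against 7.81% and 4.84%. The NF-kB site was in 23.8% and 15%, against 8.46% and 10.1%. The E-box CACGTG was in 14.3% and 7.50%, against 7.15% and 9.90%, and the FOXO site GTAAACA in 4.76% and 2.50%, against 3.65% and 2.68%. Both strands were searched, the motifs can overlap, and several windows of 1 gene share bases. The median number of CG pairs per window was 11 for the other higher genes, 12 for the lower genes, 21 for both the immediate early and the measured genes, and 7 over all windows. These shares are counts of letters, and no binding was measured.

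An Egr2 promoter is shown beside that of Cish as the immediate early counterpart, since it holds a CArG box. Other immediate early genes hold STAT matches. It is the stretch chr10:67537619-67537868 on the plus strand of GRCm38.p6 from RefSeq, the 250 bases before 1 of its annotated starts, with the CArG box at bases -72 to -63 in capitals.
Egr2: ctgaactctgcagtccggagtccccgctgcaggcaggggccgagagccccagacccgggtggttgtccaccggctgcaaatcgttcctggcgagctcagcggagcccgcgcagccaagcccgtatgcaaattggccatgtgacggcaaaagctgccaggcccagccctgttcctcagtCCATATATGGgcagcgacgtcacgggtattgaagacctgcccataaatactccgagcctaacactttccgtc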

How the data were processed

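The files hold linear intensity values per probe set, which the authors computed with MAS5, per the submitters' processing notes and the series' design text. Neither detection calls nor scan dates were used here. All arrays were brought to 1 trimmed mean (2% of probe sets dropped at either end). The floor of 119.9 is the signal that 14553 of 36701 non-control probe sets reach on at least 1 of 5 arrays, as many as the design text says survived filtering. Gene symbols came from the platform annotation, with 1 symbol for 29131 probe sets, several for 724 and none for 6846. A gene's value is the median over its measured probe sets, and those ending in _f_at, _r_at, _i_at or _x_at entered only where it had no other.

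Named are the genes past 2-fold with a firmer reading, the 8 largest rises and falls among the others, up to 4 members of each of 34 lists and 6 immediate early genes. The members and lists were chosen with earlier results of these data known. Members named beyond this rule were picked after their values were seen. Alternatives, 13 in number and 1 added after the values were seen, varied the floor, scaling, probe set rule, designs and threshold. Lists can share genes: Tnfrsf13b is both a STAT5 target and a B lineage marker, and B2m is on both the interferon and the housekeeping list. Scripts ran in Python 3.11.15 with pandas 2.3.3 and numpy 2.4.6, and were tested on simulated data. The arrays' number limits the precision.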

Additional observations from a re-analysis of the deposited data

How the results depend on the processing

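None of the named genes past 2-fold changed sign under any alternative that gave a value. The balance of counts did turn when the floor was halved or signals were not raised to it. More probe sets, and more genes outside the immediate early list, were then lower than higher. The median over all genes was -0.0070, and 0.00029 with median scaling. Nop16, not past 2-fold, was at -0.03 with all its probe sets. Outside the immediate early list, the genes higher (42) came to 94 with the floor halved, 25 with it doubled, 109 with signals not raised to the floor, 67 with median scaling, 15 on U74A and U74B only, 222 at 1.5-fold, 6 at 3-fold and 4 with genes of 2 or more probe sets only, a setting added once the values had been seen. The genes lower (28) came to 96 with the floor halved, 7 with it doubled, 114 with signals not raised, 17 with both arrays at the floor, 15 without probe sets that can cross-hybridise, 4 on U74A and U74B only, 193 at 1.5-fold, 1 at 3-fold and 0 with 2 or more probe sets. The immediate early genes higher (16) were 8 with both arrays at the floor and 3 with 2 or more probe sets. The probe sets higher (109) were 247 with the floor halved or signals not raised, 54 with it doubled, 70 with both arrays at the floor, 44 on U74A and U74B, 477 at 1.5-fold and 32 at 3-fold. The probe sets lower (78) were 268, 22, 44, 12, 442 and 8 in the same order, and 49 without cross-hybridising probe sets. Of the other comparisons, 397 list medians and 1490 values of named genes moved by less than the technical spread, and 8 and 120 moved by more. For list medians this spread was the SD of a single probe set ratio, 0.266 on the log2 scale. That is wide for a median over many genes, and a median can change sign within it, so the count says little about how stable the medians are. Akt1s1 was at -0.098 with the floor halved, where its U74A probe set entered. Where a count moved, the cause was not tested. No paired analysis was possible because each side has 1 array per design. Signal over background limits dim genes: 22 of 65 higher and 32 of 66 lower U74C probe sets had a signal under the floor on 1 side.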

Other observations

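A layer of smaller changes, chosen after the values were seen, lay between 1.5-fold and 2-fold on U74A and U74B or at 2 or more probe sets. It held 72 genes higher and 58 lower, of 6214 measured genes of that reading outside the immediate early list and below 2-fold. The SD of a single log2 ratio was 0.23 on U74A and 0.21 on U74B. Whether these changes exceed that spread was not tested. The tyrosine kinase gene Src went from 73.3 to 235 (at least 0.97 in log2 ratio). The linker histone gene H1f2 had 221 and 440 (0.99). Coq10b, of coenzyme Q function, had 130 and 342 at 1 U74B probe set and 55.8 and 178 at another, and its signals in control cells at 2 h and in Stat5 siRNA cells were as high or higher at the first. Tnfrsf12a, the receptor for the cytokine TWEAK, had 74.4 and 214, then 467 in control cells at 2 h, and 221 and 597 in Stat5 siRNA cells. Klf11, a Kruppel-like repressor, had 140 and 234, then 43.6 in control cells at 2 h, which is under the floor.

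Among the smaller falls, Yipf4 had 303 and 155 (-0.96) and Cenpk, a centromere gene, 229 and 124 (-0.88). Txnl4a, a spliceosome protein, was lower by a like amount on both of its designs, with 1026 and 658 on U74A and 365 and 229 on U74C. The control array at 30 min was the lowest of the 5 in 36 of the 58 genes lower and the highest in 30 of the 72 higher. These genes too were chosen by this array, which favours such an order.

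Some probe sets were past 2-fold while their gene was not. Foxk2 had a U74B probe set at 1.52 that can cross-hybridise, with a gene value of -0.08, and Srrm2 one that was at least 3.65-fold lower, with a gene value of -0.18. Of 721 measured U74A and U74B probe sets with no or several symbols, 4 were higher (0.555%) and 4 lower (0.555%). Over all 9079 measured probe sets of these designs 0.485% were higher and 0.132% lower. An unnamed U74A probe set went from 179 to 484 and read 1114 in control cells at 2 h, and a U74B one went from 415 to 125.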
